A study of Mus musculus with 15 samples.

Results

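The SOX transcription factors were examined in intestinal organoids, cultures grown from the crypts of mouse small intestine. The 10 genes described here, Sox17, Sox7, Sox18, Sox9, Sox4, Sox12, Sox5, Sox6, Sox13 and Sox21, were chosen by name and found by their Ensembl identifiers, and are 10 of the 43629 genes in the count table. The table holds 20 SOX family genes in all, so 10 others were read alongside. RNA-seq of polyA RNA was deposited for 15 organoid cultures of strain C57B6/129, of which 13 could be placed in a group from their labels.

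WT comprised 5 libraries grown in ENR medium, which contains EGF, Noggin and RSPO1. Of these, 4 came from APC flox/flox lines in which Apc had not been deleted (replicates 1, 2, 5 and 6). The fifth, replicate naive, was Dox naive, meaning that its doxycycline-inducible Cas9 was never induced. Apc comprised 4 libraries with the genotype Apc delta/delta (replicates 1, 2, 5 and 6), and P-Rspo3 comprised 4 libraries carrying the Ptprk-Rspo3 inversion (replicates 15d, 4d, M and F). Both mutant groups were grown in EN medium without RSPO1, so medium and genotype cannot be told apart in the comparisons with WT, whereas Apc and P-Rspo3 shared the same medium. The P-Rspo3 and Dox naive cultures came from other lines than the flox lines, and the ages of the animals were not given. Nothing in the labels says whether the libraries of a group came from separate animals, so the p-values measure the spread between these cultures, which may in part be technical. Of the remaining 2 libraries, the one with the Ptprk-Rspo3 genotype has a title that conflicts with it. The title of the other, with the genotype Dox naive (WT), names no group. Neither entered a group.

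The libraries held 28902729 to 35528495 counts. Rspo3, the gene joined to Ptprk by the inversion, reached 539 to 1079 counts in P-Rspo3, at most 1 in WT and 7 to 57 in Apc. Ptprk had 2958 to 4996 counts in WT and 4795 to 6269 in Apc. P-Rspo3 libraries 15d, M and F had 2012, 1939 and 1517 counts of Ptprk, below WT. Library 4d, the lowest of P-Rspo3 in Rspo3, had 3107, within the WT range. Apc was counted over its whole gene, which does not check a deletion of part of it, and had a mean FPKM of 29.4 in Apc, 14.5 in WT and 17.3 in P-Rspo3. The epithelial markers Epcam, Cdh1, Krt8, Krt18, Krt19, Krt20, Vil1, Cdx1 and Cdx2 summed to 2091 to 2479 FPKM in WT, 1902 to 2377 in Apc and 2052 to 2446 in P-Rspo3, and these ranges overlapped. Within the list, 3 genes were called lower in Apc than in WT by the edgeR test and 1 higher, against 14.1% and 12.2% of all genes. Krt20, a keratin of mature enterocytes, had a mean FPKM of 54.4 in WT and 1.36 in Apc (log2 fold change -5.60, SE 0.59), Cdx1 stood at -4.18 (SE 0.18) and Vil1 at -1.26 (SE 0.12), while Krt18 stood at 1.11 (SE 0.12).

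SOX proteins bind DNA through an HMG box, a domain that sits in the minor groove and bends the helix, and they usually act together with partner transcription factors. The family is split into groups by the sequence of this box. In the intestine Sox9 is known as a gene of crypt base cells that is needed for Paneth cells, and Sox17 as a factor of early endoderm and of blood vessels whose protein can interact with beta-catenin. Wnt signalling acts by stabilising beta-catenin, which APC otherwise helps to destroy, and R-spondins such as RSPO1 and RSPO3 raise the response of a cell to Wnt ligands.

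The boxes of the 10 genes are shown because they define the family and the groups by which the results are ordered, and because similar sequences are where reads of related genes could be confused. Each line holds the same 60 bases of the coding strand, 5′ to 3′, near the start of the box, read from the GENCODE transcripts of GRCm38, and capitals mark bases that differ from Sox17.
Sox17: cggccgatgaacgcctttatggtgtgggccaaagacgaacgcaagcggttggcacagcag
Sox7: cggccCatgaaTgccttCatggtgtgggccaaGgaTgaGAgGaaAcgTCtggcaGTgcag
Sox18: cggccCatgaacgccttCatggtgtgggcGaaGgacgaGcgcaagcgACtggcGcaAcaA
Sox9: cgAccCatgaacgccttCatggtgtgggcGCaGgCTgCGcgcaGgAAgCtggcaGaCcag
Sox4: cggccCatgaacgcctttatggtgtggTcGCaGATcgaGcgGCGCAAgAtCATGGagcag
Sox12: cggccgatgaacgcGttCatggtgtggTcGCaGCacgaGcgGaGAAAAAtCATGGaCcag
Sox5: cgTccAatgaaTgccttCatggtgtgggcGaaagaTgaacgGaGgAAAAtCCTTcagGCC
Sox6: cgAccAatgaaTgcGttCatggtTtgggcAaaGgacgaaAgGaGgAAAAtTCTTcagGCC
Sox13: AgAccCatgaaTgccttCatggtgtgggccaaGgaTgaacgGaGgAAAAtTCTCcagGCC
Sox21: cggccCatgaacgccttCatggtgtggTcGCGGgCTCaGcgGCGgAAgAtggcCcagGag
Over the 237 bases of the box, Sox17 was 82.3% identical to Sox18 and 79.7% to Sox7, its partners in the SOXF group, and 75.1% identical to Sox9. It was 67.5% identical to Sox21, 64.6% to Sox4 and 56.5% to Sox6. The most alike pair was Sox4 and Sox12, at 85.2%. The longest stretch shared without a mismatch by any pair of the 10 transcripts was 35 bases, between Sox7 and Sox13, and for Sox17 it was 29 bases, with Sox18.

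Of the 10 SOX genes, Sox4, Sox9, Sox13, Sox6 and Sox12 were expressed in the organoids of all 3 groups, while Sox17 and Sox21 were high in Apc alone. The summed FPKM (fragments per kilobase of transcript, scaled to library size, a level adjusted for gene length) of the 20 SOX family genes was 40.3 ± 7.499 in WT (SD, n = 5), 37.3 ± 8.60 in P-Rspo3 (SD, n = 4) and 261 ± 48.1 in Apc (SD, n = 4). The Apc libraries, at 205 to 316, lay above the 28.8 to 52.7 of the other 9. In WT, Sox4 made up 39.1% of this total, Sox9 28.0%, Sox13 24.4% and Sox6 5.68%. In Apc, Sox17 made up 43.6%, Sox4 25.1%, Sox21 15.3% and Sox9 9.20%. Gm26735, a transcript that overlaps Sox4 on the opposite strand, is not in this total. It held 10.5 to 17.5 FPKM in WT and 37.5 to 48.2 in Apc. How reads of the overlap were divided is not known, so the share of Sox4 and the total are uncertain. Thus Sox9 took a smaller share of the family total in Apc although its own level was higher there.

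**Figure D1:**
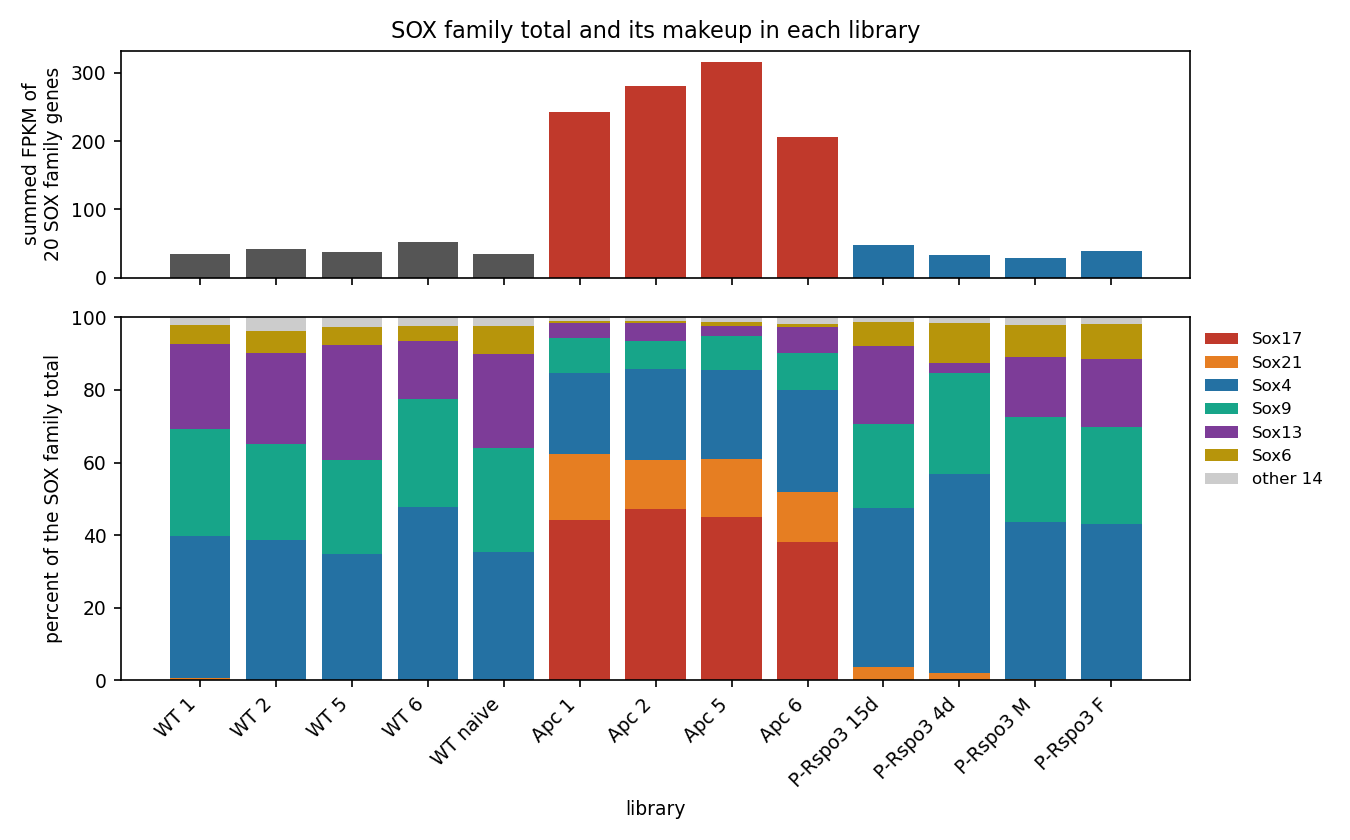
The upper bars give the summed FPKM of the 20 SOX family genes in each of the 13 libraries, and the lower bars split that total, in percent, between the 6 genes with the largest shares and the other 14. The 4 Apc libraries reach 205 to 316 FPKM, and Sox17 (red) and Sox21 (orange) make up a large part of each of them. The part of Sox4 is uncertain, because Gm26735 overlaps it on the opposite strand.

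Ordered by mean FPKM ± SD, the WT levels (n = 5) ran Sox4 (16.1 ± 5.32), Sox9 (11.3 ± 2.49), Sox13 (9.57 ± 1.52), Sox6 (2.25 ± 0.396), Sox12 (0.934 ± 0.273), Sox5 (0.101 ± 0.0523) and Sox21 (0.0701 ± 0.0831), followed by Sox17, Sox7 and Sox18 at 0. Ranges of neighbours overlapped between Sox4 and Sox9, between Sox9 and Sox13 and between Sox5 and Sox21, so the ranges do not rank these neighbours. Within single libraries, Sox4 exceeded Sox9 in 5 of 5, and Sox9 exceeded Sox13 in 4 of 5, as did Sox5 over Sox21. In P-Rspo3 (n = 4) the order began in the same way, with Sox4 at 17.1 ± 3.62, Sox9 at 9.76 ± 1.33, Sox13 at 5.86 ± 3.99 and Sox6 at 3.28 ± 0.553, and went on with Sox21 at 0.626 ± 0.789, Sox12 at 0.441 ± 0.102 and Sox5 at 0.108 ± 0.0268. There the range of Sox13 overlapped those of Sox9 and Sox6, and that of Sox21 overlapped Sox12. In Apc (n = 4) the order was Sox17 (115 ± 29.0), Sox4 (65.2 ± 11.2), Sox21 (40.0 ± 9.17), Sox9 (23.8 ± 3.62), Sox13 (11.9 ± 2.76), Sox6 (1.77 ± 0.858), Sox12 (1.77 ± 0.344), Sox5 (0.975 ± 0.457), Sox18 (0.273 ± 0.300) and Sox7 (0.00918 ± 0.00715). Ranges overlapped between Sox17 and Sox4, between Sox21 and Sox9, and along the run from Sox6 to Sox18. Within 4 of 4 libraries, however, Sox17 exceeded Sox4 and Sox21 exceeded Sox9. The order of Sox17 and Sox4 rests on an FPKM of Sox4 that its overlap with Gm26735 leaves uncertain.

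**Figure D2:**
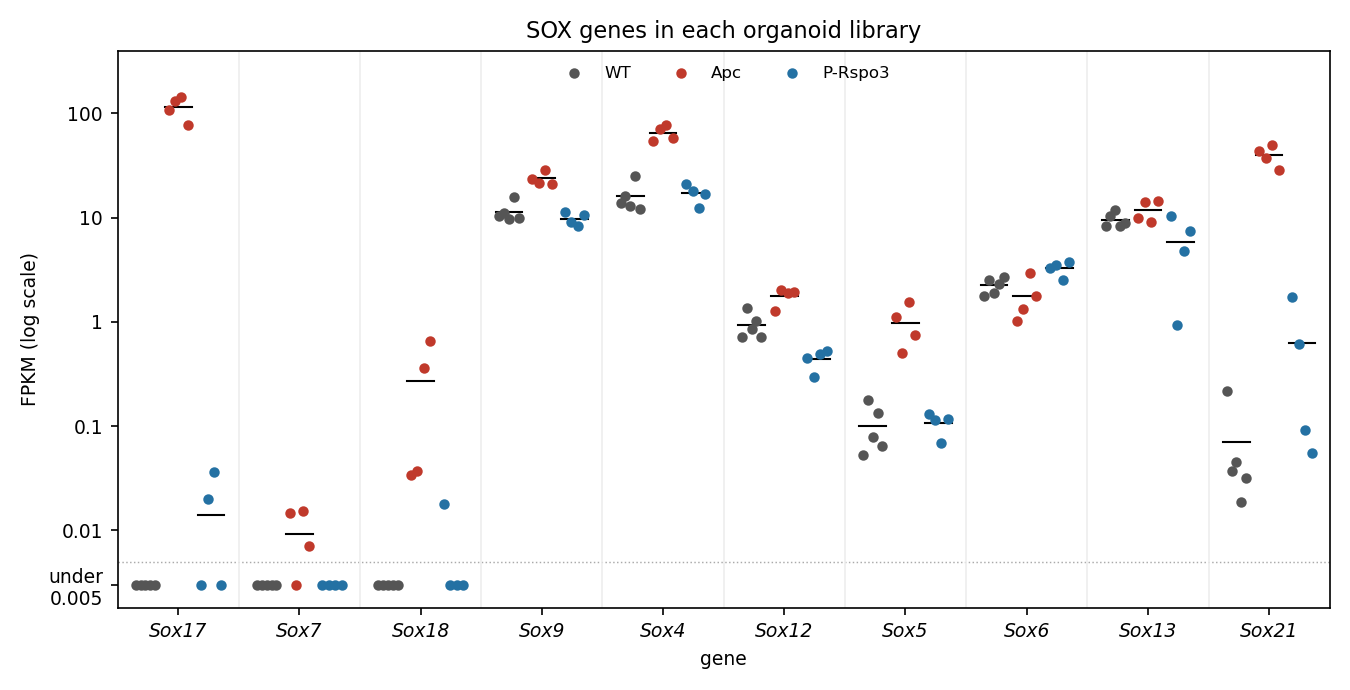
FPKM of the 10 SOX genes on a log scale, with 1 point per library (WT 5, Apc 4, P-Rspo3 4), a black line at each group mean, and values under 0.005 (0 included) drawn below the dotted line. Sox17 sits at 77.9 to 143 in Apc and at most 0.0362 elsewhere, whereas Sox13 spans 0.934 to 10.3 within P-Rspo3 alone.

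Groups were compared on the counts with edgeR's quasi-likelihood test, and a gene was called where its Benjamini-Hochberg adjusted p was under 0.05 and its log2 fold change above 1 or below -1. A gene was tested only if enough libraries reached an FPKM of 0.1. Between Apc and WT, 8 of the 10 SOX genes were tested, of which 4 (Sox17, Sox21, Sox5 and Sox4) were called higher in Apc, against 12.2% of the 16749 genes tested. None was called lower by edgeR, against 14.1% of all genes. Of the 8, 1 (Sox6) was lower at an unadjusted p under 0.05, and DESeq2 called none lower either. The median log2 fold change of the 8 was 1.27, beside 0.00058 over all genes tested. Sox17, Sox21 and Sox5 reached the FPKM limit in 4 Apc libraries, but in 0, 1 and 2 WT libraries. They thus entered the test only through Apc. The number called higher, the median and the number without overlap are therefore partly set by this filter. Apc and WT libraries did not overlap, in counts scaled by library size, for 5 of the 8, against 51.6% of all genes. Between P-Rspo3 and WT, 6 were tested and none was called, where 0.00625% of 15992 genes were called higher and 0.0% lower. Of those 6, Sox12 and Sox6 had an unadjusted edgeR p under 0.05, DESeq2 called Sox12 lower, and the median of the 6 was -0.18 beside 0.0041. Only Sox12 did not overlap between these groups, 1 of 6 against 4.9% of all genes. Between Apc and P-Rspo3, which shared EN medium, 8 were tested. Sox17, Sox21, Sox5, Sox12, Sox4 and Sox9 were called higher in Apc, 6 of 8 against 13.4% of 16456 genes, and Sox6 was called lower, 1 of 8 against 13.3%. The median log2 fold change was 1.71, beside 0.00066 over all genes, and 7 of the 8 did not overlap, against 53.6%. Sox17, Sox21 and Sox5 reached the FPKM limit in 0, 2 and 3 P-Rspo3 libraries, so here too they were tested only through Apc. The 3 comparisons share libraries, so they are not independent of each other.

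**Figure D3:**
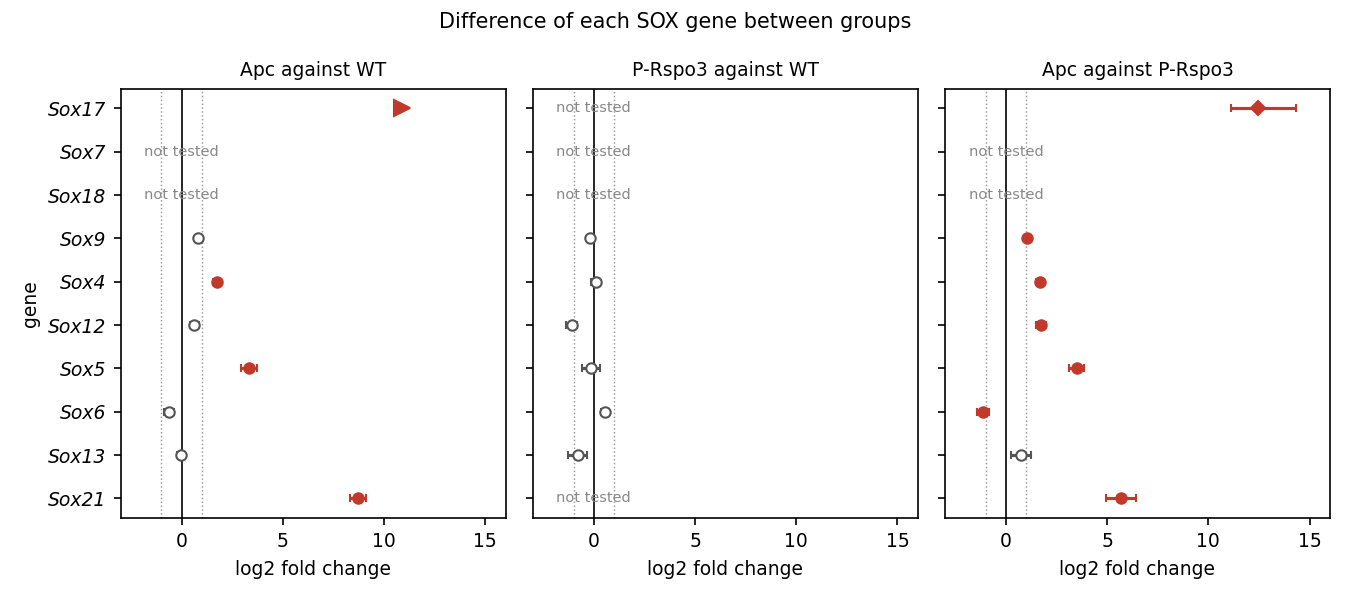
Fitted log2 fold change of each SOX gene (positive where the first named group is higher) with its standard error, for Apc against WT, P-Rspo3 against WT and Apc against P-Rspo3. Filled red symbols were called, open symbols were not, and dotted lines mark -1 and 1. For Sox17 the arrow is the lower bound of the fold against WT and the diamond is the count ratio against P-Rspo3 with its 95% interval. Called genes lie to the right in both Apc panels, with Sox6 on the left in the last.

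The SOXF group holds Sox17, Sox7 and Sox18, which share roles in the formation of blood and lymph vessels. Sox17 (chromosome 1, 4490931 to 4497354, minus strand, GRCm38) had 0 counts in each of the 5 WT libraries. The Apc libraries 1, 2, 5 and 6 had 7218, 7879, 8702 and 5627 counts, or FPKM values of 107, 133, 143 and 77.9. The P-Rspo3 libraries 15d, 4d, M and F had 0, 3, 1 and 0. Sox17 was therefore high in 4 of 4 Apc libraries and at or under 3 counts in the other 9, and the groups did not overlap. At the depth of these libraries 3 counts correspond to 0.104 CPM (counts scaled by the TMM library size), and against this limit Sox17 was at least 1874-fold higher in Apc than in WT (edgeR adjusted p = 2.9e-07). Against the 4 counts summed over P-Rspo3, 3 of them in library 4d, the Apc level was 5667-fold, with a 95% counting interval of 2213 to 20801 (adjusted p = 7.4e-08). Without 4d, 1 count remained in P-Rspo3 and the ratio came to 17136, with an interval of 3075 to 676843. These intervals cover counting error only. In bulk RNA, a larger number of cells with a transcript and more transcript per cell cannot be told apart.

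Sox17 shares 804 exon bases, 16.8% of its exons, with Gm37587, a transcript on the opposite strand. Gm37587 had 0 counts in WT and P-Rspo3 and 28 to 34 in Apc. The strand setting of the counting is not given in the sources used here, so reads in this overlap cannot be assigned to one strand. The counts of Gm37587 were small beside those of Sox17, and its FPKM in Apc was 0.657 to 1.06. Small counts do not show how many reads lie in the overlap.

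Sox18 (chromosome 2, 181669836 to 181671640, minus strand) was at 0 counts in WT, at 2, 2, 21 and 42 in Apc libraries 1, 2, 5 and 6, and at 1, 0, 0 and 0 in P-Rspo3. Thus only libraries 5 and 6 rose above 3 counts, and too few libraries reached an FPKM of 0.1 for Sox18 to be tested. Where the FPKM limit was dropped, it was called higher in Apc than in WT, at an edgeR adjusted p of 0.0062. The Apc mean was at least 4.04-fold higher, a bound that libraries 5 and 6 carried and that does not hold for libraries 1 and 2. Sox7 (chromosome 14, 63943673 to 63950732, plus strand) had 2, 0, 2 and 1 counts in Apc and 0 in the other 9 libraries, and was not detectable at this depth. Sox17 thus stood apart from both SOXF partners, with a mean FPKM of 115 in Apc beside 0.273 for Sox18 and 0.00918 for Sox7.

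Because SOXF genes are active in endothelium, 12 endothelial markers were read in the same libraries. Their summed FPKM was 1.52 to 2.996 in WT, 1.14 to 2.12 in P-Rspo3 and 12.9 to 21.1 in Apc. Of the 6 tested markers, 5 were called higher in Apc than in WT, against 12.2% of all genes, and 1 lower, against 14.1%. Cdh5 and Flt1 had a mean FPKM of 0 in WT, and Tek had 0.0947 ± 0.0800 (SD, n = 5). Cdh5, Flt1 and Tek thus entered this test only through Apc, and the number called higher is partly set by the FPKM limit. Cdh5, an endothelial cadherin, had 217 to 372 counts in Apc and 0 in the other 9 libraries. Flt1, a VEGF receptor, had 171 to 309 in Apc and at most 1 elsewhere. Vwf, a clotting factor carrier, had a log2 fold change of 5.32 (SE 0.33), and Tek, the angiopoietin receptor, of 3.82 (SE 0.37). The other markers of the list, which the naming rule left out, were named after their values were seen and went both ways. Esam was called higher in Apc (log2 fold change 1.42, SE 0.25). Cldn5 had 0 to 46 counts in Apc and 0 elsewhere, and Plvap had 9 to 15 in Apc and at most 6 elsewhere. Kdr, the main VEGF receptor, had 0 counts in each of the 13 libraries, and Emcn had at most 1. Tie1 had at most 7 counts and Erg at most 4. Pecam1 was called lower in Apc (log2 fold change -2.95). The mean FPKM of Sox17 in Apc was 115, and that of the most abundant marker, Vwf, was 6.68. The part of these markers in the SOXF values was not tested.

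**Figure D4:**
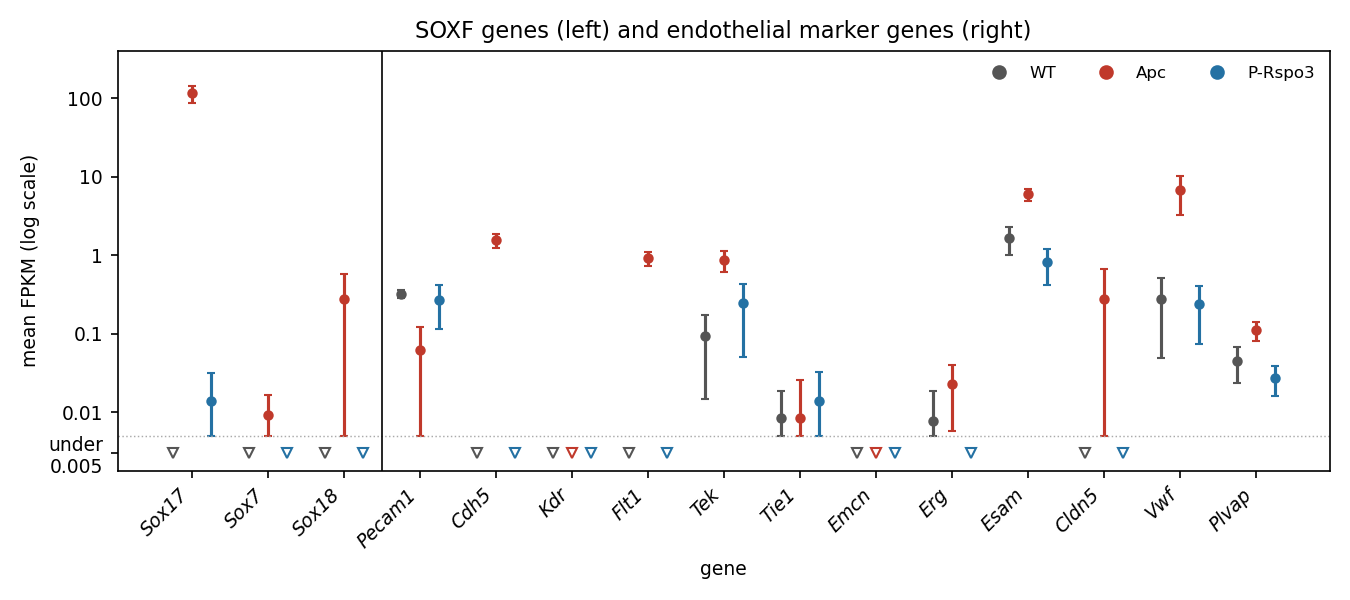
Mean FPKM (log scale) with SD over libraries of the 3 SOXF genes (left of the line) and the 12 endothelial markers (right), in WT (n = 5), Apc (n = 4) and P-Rspo3 (n = 4); open triangles stand for means under 0.005, and bars are cut at 0.005. Cdh5, Flt1 and Cldn5 have a mean above 0.005 in Apc alone, Esam is higher and Pecam1 lower in Apc, and Kdr is at the bottom in each group.

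Sox21, a SOXB factor known as a transcriptional repressor (chromosome 14, 118233232 to 118237030, minus strand), showed the second largest rise of the 10 genes. It had 29, 5, 6, 3 and 3 counts in WT libraries 1, 2, 5, 6 and naive, and 5755, 4456, 6294 and 3986 in Apc libraries 1, 2, 5 and 6. The log2 fold change was 8.71 (SE 0.40, adjusted p = 5.0e-08), and 9.78 without WT 1, the highest of its group. In P-Rspo3 it varied from 222 in 15d and 75 in 4d to 13 in M and 6 in F, so that 2 libraries lay above the WT range and 2 within it. Sox21 was not tested between P-Rspo3 and WT, as an FPKM of 0.1 was reached in 2 P-Rspo3 libraries and 1 WT library. Apc exceeded P-Rspo3 by a log2 fold change of 5.70 (SE 0.75, adjusted p = 1.7e-04), and by 6.94 without library 15d. Levels in 15d, the highest of P-Rspo3 at 1.75 FPKM, were still far from the lowest Apc library at 28.5.

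Gm4675, a lincRNA on the opposite strand, shares 713 exon bases with Sox21, 18.8% of its exons. Its counts followed the same libraries, with 0 to 2 in WT, 104 to 128 in Apc, and 20, 7, 0 and 1 in P-Rspo3 libraries 15d, 4d, M and F. Whether these reads belong to one strand or both cannot be told apart here.

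Of the SOXE group, Sox9 (chromosome 11, 112782224 to 112787760, plus strand) was higher in Apc than in WT by less than the threshold on the fold. WT libraries 1, 2, 5, 6 and naive had 1577, 1546, 1334, 2612 and 1399 counts, Apc libraries 1, 2, 5 and 6 had 3874, 3173, 4574 and 3687, and P-Rspo3 libraries 15d, 4d, M and F had 1743, 1290, 1265 and 1516. WT replicate 6 was high, yet the Apc libraries lay above those of WT and of P-Rspo3. The log2 fold change was 0.80 against WT (SE 0.14, adjusted p = 5.7e-04) and 1.02 against P-Rspo3 (SE 0.13, adjusted p = 1.2e-04). Between P-Rspo3 and WT it was -0.21 (SE 0.14, adjusted p = 0.56). With limma on FPKM, the fold against WT passed the threshold, at 1.08 on the log2(FPKM + 0.1) scale (adjusted p = 1.7e-04) and 1.02 on the log2(FPKM + 1) scale (adjusted p = 1.9e-04), where the median of all genes stood at 0.28 and 0.17. The call against P-Rspo3 sits at the edge of the threshold, and the fold fell under it without Apc 5, P-Rspo3 4d or P-Rspo3 M, with 0.92 as the lowest value.

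Sox9 is tied to Paneth cells, most of whose markers moved the other way. Of the 11 Paneth cell genes tested, 8 were called lower and 2 higher in Apc than in WT, against 14.1% and 12.2% of all genes. Their summed FPKM was 747 to 1915 in Apc, 7310 to 12315 in WT and 3973 to 10250 in P-Rspo3. The defensins Defa30, Defa24, Defa26 and Defa17 fell by log2 fold changes of -4.67 to -4.34. The 2 genes called higher, which the naming rule left out, were Pla2g2a at 3.75 (SE 0.35) and Mmp7 at 1.74 (SE 0.26). Defa22, at -0.35 (SE 0.41), was not called. The defensins are near-identical copies, between which reads can be split. The part of the Paneth cell genes in the level of Sox9 was not tested. The other SOXE genes were scarce, with 0 to 8 counts of Sox8 in Apc and 0 elsewhere, and 0 counts of Sox10 in each library.

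Of the SOXC group, which acts in progenitor cells, Sox4 (chromosome 13, 28948919 to 28953713, minus strand) had the highest mean FPKM of the SOX genes in WT and P-Rspo3. It had 1061, 1128, 863, 2092 and 793 counts in WT libraries 1, 2, 5, 6 and naive and 4319, 5128, 6133 and 4959 in Apc libraries 1, 2, 5 and 6. P-Rspo3 libraries 15d, 4d, M and F had 1577, 1255, 898 and 1242. The Apc libraries did not overlap either group, whereas P-Rspo3 lay within the range of WT. Sox4 was higher in Apc than in WT by a log2 fold change of 1.75 (SE 0.21, adjusted p = 3.9e-05) and higher than in P-Rspo3 by 1.68 (SE 0.17, adjusted p = 3.8e-05). The difference between P-Rspo3 and WT was 0.086 (SE 0.22, adjusted p = 0.92).

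Over 2616 bases, 54.6% of its exons, Sox4 overlaps the lincRNA Gm26735 on the opposite strand. The FPKM table gave Gm26735 10.5 to 17.5 in WT, 37.5 to 48.2 in Apc and 11.5 to 16.7 in P-Rspo3, while its counts were 0 to 2 in each library. The 2 tables thus treated this overlap in different ways, and which reads of the overlap were counted for Sox4 cannot be told. The same limit holds for the FPKM of Sox4, its rank and its share of the family total.

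Sox4 has been tied to tuft and enteroendocrine precursors. Over all genes, 14.1% were called lower and 12.2% higher in Apc than in WT. Of 9 tuft cell genes tested, 5 were called lower and none higher. Among them was the tuft cell kinase Dclk1, at a log2 fold change of -4.71 (SE 0.35). The list of 10 tuft cell genes summed to 10.6 to 22.5 FPKM in WT, 5.05 to 10.8 in Apc and 5.96 to 12.7 in P-Rspo3. Of 10 enteroendocrine genes, 6 were called lower and none higher, with the granins Chgb at -3.15 (SE 0.19) and Chga at -3.02 (SE 0.41), and they summed to 76.5 to 108 FPKM in WT, 16.9 to 34.2 in Apc and 64.2 to 91.1 in P-Rspo3. The part of these genes in the level of Sox4 was not tested.

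Sox12 (chromosome 2, 152393611 to 152398063, minus strand), a second SOXC gene, had P-Rspo3 libraries that lay below those of WT. WT libraries 1, 2, 5, 6 and naive had 119, 210, 133, 186 and 111 counts, and P-Rspo3 libraries 15d, 4d, M and F had 76, 46, 80 and 83. The log2 fold change was -1.10 (SE 0.26), with an unadjusted p of 0.0015 and an adjusted p of 0.13 by edgeR, so it was not called. DESeq2 put the adjusted p at 0.0037, with a log2 fold change of -1.11. Apc libraries 1, 2, 5 and 6 had 226, 329, 324 and 361 counts, all above P-Rspo3, at a log2 fold change of 1.75 (SE 0.24, adjusted p = 2.2e-04). Against WT the fold was 0.63 (SE 0.23, adjusted p = 0.033), under the threshold on the fold, and the adjusted p rose to between 0.051 and 0.090 in 7 of the 9 fits that left out 1 library. Those 7 left out WT 1, WT 5, WT 6, WT naive, Apc 2, Apc 5 or Apc 6. The third SOXC gene, Sox11, had 18, 8, 54 and 24 counts in Apc and at most 3 elsewhere, a ratio to the 8 counts summed over WT of 12.4 with a 95% counting interval of 6.05 to 29.4. Without Apc 5 this ratio was 7.89, with an interval of 3.71 to 19.3.

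The SOXD genes Sox5, Sox6 and Sox13 lack a transactivation domain of their own and act with other factors. Sox5 (chromosome 6, 143828425 to 144781977, minus strand) was low throughout, with 7, 14, 4, 23 and 10 counts in WT libraries 1, 2, 5, 6 and naive, 160, 88, 224 and 136 in Apc libraries 1, 2, 5 and 6, and 13, 11, 5 and 12 in P-Rspo3 libraries 15d, 4d, M and F. Its Apc libraries lay above the others, at a log2 fold change of 3.32 against WT (SE 0.40, adjusted p = 3.9e-05) and 3.49 against P-Rspo3 (SE 0.37, adjusted p = 4.7e-05). Between P-Rspo3 and WT it was -0.16 (SE 0.45, adjusted p = 0.93), a value whose sign changed between settings.

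Sox6 (chromosome 7, 115470872 to 116038796, minus strand) was called lower in Apc than in P-Rspo3. Apc libraries 1, 2, 5 and 6 had 367, 401, 973 and 638 counts, P-Rspo3 libraries 15d, 4d, M and F had 1079, 1039, 795 and 1136, and WT libraries 1, 2, 5, 6 and naive had 572, 730, 560, 803 and 814. Apc 5 was the highest of its group, at 25.8 CPM, within the 18.7 to 29.3 CPM of WT and under the 26.6 to 41.8 CPM of P-Rspo3. Sox6 was lower in Apc than in P-Rspo3 by a log2 fold change of -1.15 (SE 0.29, adjusted p = 0.0081), which came to -0.97 without Apc 1 and to -1.51 at the other end of the fits that left out 1 library. With limma it was -0.94 on the log2(FPKM + 0.1) scale (adjusted p = 0.025) and -0.66 on the log2(FPKM + 1) scale (adjusted p = 0.023), short of the threshold on the fold. Against WT the value was -0.63 (SE 0.27, adjusted p = 0.062), and -0.99 (adjusted p = 0.0020) without Apc 5. P-Rspo3 against WT stood at 0.54 (SE 0.16, adjusted p = 0.19).

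Sox13 (chromosome 1, 133382303 to 133424377, minus strand), an antagonist of TCF factors in lymphocytes, did not pass the test in any of the 3 comparisons. WT libraries 1, 2, 5, 6 and naive had 1004, 1206, 1343, 1057 and 995 counts, and Apc libraries 1, 2, 5 and 6 had 1211, 1579, 1152 and 1829. The log2 fold change between them was -0.054 (SE 0.18, adjusted p = 0.83) and 0.30 on the log2(FPKM + 0.1) scale, where the median of all genes stood at 0.28. P-Rspo3 libraries 15d, 4d, M and F had 1175, 117, 542 and 849, so that 4d was lower than any other library. P-Rspo3 against WT came to -0.79 (SE 0.46, adjusted p = 0.49), and to -0.44 (adjusted p = 0.64) without 4d. Apc against P-Rspo3 was 0.75 (SE 0.51, adjusted p = 0.25), and 0.40 without 4d.

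In library 4d, Sox13 had an FPKM of 0.934, beside 4.78 to 10.3 in the other P-Rspo3 libraries, a ratio of 0.125 to their mean. After this value was seen, the 12 genes within 500 kb with a mean FPKM of at least 1 were read in the same way. Their ratios had a median of 1.12 and ran from 0.334 for Prelp to 1.36 for Zbed6. The nearest genes on either side, Etnk2 and Snrpe, stood at 0.762 and 0.887.

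**Figure D5:**
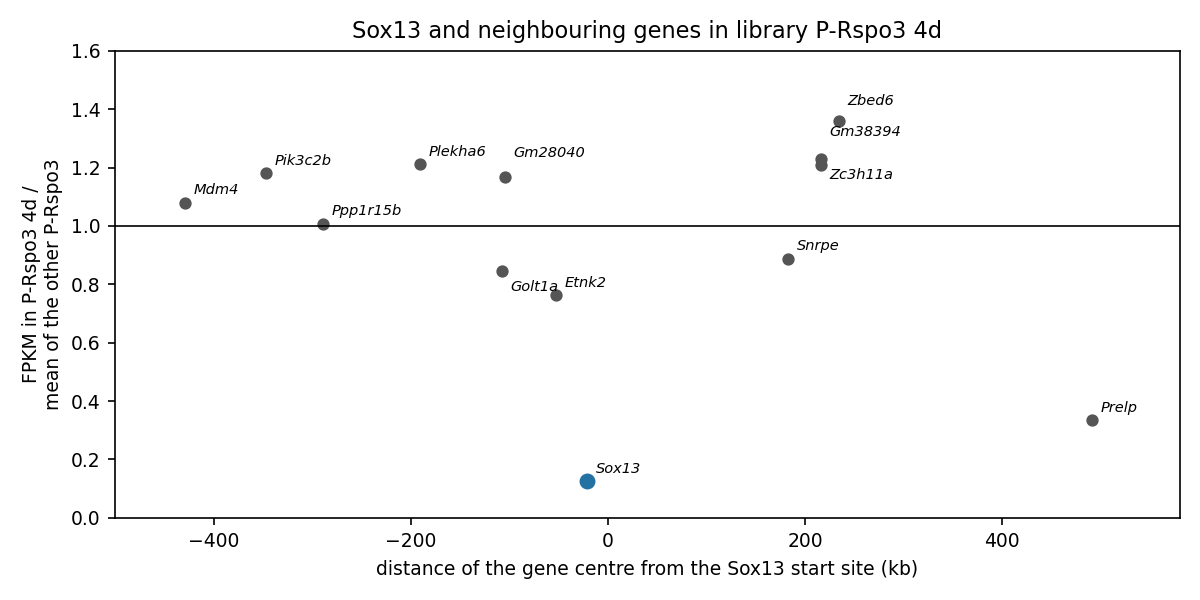
FPKM in P-Rspo3 library 4d divided by the mean of the other 3 P-Rspo3 libraries, for Sox13 (blue) and 12 neighbouring genes, against the distance of each gene's centre from the Sox13 start in kb. Sox13 is lowest at 0.125, and the neighbours lie between 0.334 and 1.36.

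Among the 10 other SOX family genes, Sox14 alone was tested. It had 8, 9, 8 and 18 counts in Apc libraries 1, 2, 5 and 6 and 0 in the other 9, and was called higher than in WT (at least 2.67-fold, adjusted p = 5.2e-04) and than in P-Rspo3 (at least 2.71-fold, adjusted p = 0.0010). Sox14 reached the FPKM limit in 4 Apc libraries, 0 WT and 0 P-Rspo3 libraries. It was thus tested only through Apc, so this filter set the direction of the calls. Sox2, a foregut factor, had 1, 3, 10 and 5 counts in Apc and 0 elsewhere. Sox1, Sox10, Sox30 and Sry had at most 3 counts in each library, Sox15 and Sox3 had at most 4, and Sox8 at most 8. Sox14 and Sox11 thus exceeded 3 counts in 4 of 4 Apc libraries, Sox2 in 2, and Sox8 and Sox3 in 1 each, and these 5 genes exceeded it in none of the other 9 libraries. Sox15 exceeded it both in Apc, with 4 counts in libraries 5 and 6, and outside Apc, with 4 in P-Rspo3 4d.

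The levels of Sox17, Sox9, Sox4 and Sox21 were then compared with those of all genes tested, as Pearson r of log2(CPM + 1) over the 13 libraries. These values are descriptions, since the 4 Apc libraries stand apart from the other 9 and set most of each r. Most like Sox17 were Cdh13, a cadherin without an intracellular domain (r = 0.9994), Ifitm1 (r = 0.9992) and Robo1, a SLIT receptor (r = 0.9992), with mean FPKM in Apc of 17.2, 809 and 8.58 and at most 0.269 in the other groups. Most like Sox21 were Gm4675 (r = 0.996), which overlaps it, Gm9949 (r = 0.987) and Anxa1 (r = 0.985). For Sox9 these were Tns3 (r = 0.983), Vwa2 (r = 0.980) and Angpt2 (r = 0.971), and for Sox4 E130308A19Rik (r = 0.993), Rabgap1 (r = 0.989) and Rest (r = 0.983). Among the SOX genes themselves, Sox17 had r = 0.967 with Sox21, 0.962 with Sox5, 0.938 with Sox4 and 0.891 with Sox9, but 0.230 with Sox13 and -0.712 with Sox6.

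Genes of beta-catenin signalling were read beside the SOX genes. Of 16 TCF/beta-catenin target genes, 13 were called higher in Apc than in WT and none lower, against 12.2% and 14.1% of all genes. Their median log2 fold change was 1.94. The largest were those of Notum at 6.79 (SE 0.52), Nkd1 at 6.48 (SE 0.47), Tnfrsf19 at 4.86 (SE 0.43) and Lef1 at 4.35 (SE 0.40). Between P-Rspo3 and WT none of the 16 was called, at a median of -0.40. Between Apc and P-Rspo3 14 were called higher, against 13.4% of all genes. Of the 8 tested genes among TCF/LEF factors, beta-catenin and its coactivators, 3 were called higher in Apc than in WT, namely Tcf7l1 at 4.69 (SE 0.31), Lef1 and Tcf7 at 1.65 (SE 0.13). Sox17, Sox21, Sox5 and Sox4 thus rose in the same libraries as these targets, as did 12.2% of all genes.

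Sox17 acts with other endoderm factors in the embryo, and these did not move as a group. Of 14 tested endoderm transcription factors, 3 were called higher and 5 lower in Apc than in WT, against 12.2% and 14.1% of all genes. Their median log2 fold change was -0.51. Prox1, a factor of lymphatic and liver development, rose by 6.73 (SE 0.33) and Eomes, a factor of early endoderm, by 4.27 (SE 0.53), while Cdx1, a factor of intestinal identity, stood at -4.18 (SE 0.18) and Pdx1, a factor of duodenum and pancreas, at -4.04 (SE 0.64). Eomes had a mean FPKM of 0.0636 in WT, so it entered the test only through Apc. Gsc and Mixl1, further early endoderm genes picked after their values were seen, had at most 10 and 2 counts.

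Because Sox2 is a factor of foregut epithelium, 14 stomach and foregut genes, Sox2 among them, were read as well. Of 10 tested, 5 were called higher and 3 lower in Apc than in WT, against 12.2% and 14.1% of all genes, at a median of 1.19. The mucin gene Muc5ac had 43 to 207 counts in Apc and 0 in the other 9 libraries, Muc6 rose by a log2 fold change of 5.17 (SE 0.44), the protease gene Ctse by 4.198 (SE 0.52) and Vsig1 by 3.81 (SE 0.76). Their levels in Apc were low, at a mean FPKM of 0.287, 0.845, 2.24 and 0.773. In WT, Muc5ac, Muc6 and Vsig1 stood at 0, 0.0150 and 0.0399, so they entered this test only through Apc. The number called higher and the median are therefore partly set by the FPKM limit. The 3 called lower, which the naming rule left out, were Anxa10 at -3.42 (SE 0.54), Pgc at -1.75 (SE 0.46) and Gkn3 at -1.67 (SE 0.34), and their mean FPKM in WT was 10.6, 0.951 and 6.56, beside 1.20, 0.322 and 2.42 in Apc. Between P-Rspo3 and WT none of the 6 tested was called. Of 10 cartilage genes bound by Sox5, Sox6 and Sox9, 4 were tested between Apc and WT and 1 was called higher, the collagen gene Col2a1 with 25 to 58 counts in Apc and at most 1 elsewhere, and 4 genes had at most 3 counts in each library. Col2a1 had a mean FPKM of 0.00179 in WT, so it too entered the test only through Apc.

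Markers of other cell types that express SOX genes were read too. Of 10 fibroblast and smooth muscle genes, 6 had at most 3 counts in each library, and the list summed to 0.0976 to 0.210 FPKM in WT, 0.241 to 0.434 in Apc and 0.262 to 0.648 in P-Rspo3. Pdgfra was called higher and Pdgfrb lower in Apc than in WT, where 12.2% of all genes were called higher and 14.1% lower. With a mean FPKM of 0.00736 in WT, Pdgfra entered the test only through Apc. Pdgfrb, at 0.0110 in Apc, entered it only through WT. Of 7 enteric glia and Schwann cell genes, 4 were tested and 2 were called lower, among them S100b, while Sox10 was at 0, and the list summed to 34.5 to 42.8 FPKM in WT, 26.9 to 32.3 in Apc and 31.1 to 38.0 in P-Rspo3. Erbb3, a receptor gene that epithelia also express, made up most of that sum, with a mean FPKM of 36.4, 27.1 and 34.4 in WT, Apc and P-Rspo3. Of 5 tested leukocyte genes, 1 (Cd68) was called higher and 3 lower, with sums of 2.90 to 4.89, 4.38 to 12.4 and 2.05 to 4.74 FPKM in WT, Apc and P-Rspo3. The part of these cells in the SOX values was not tested.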

How the data were processed

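RNA-seq libraries were compared in the groups given by their genotype labels. The 10 SOX genes and the gene lists were chosen with earlier results of these data known. Per the labels and the methods, the authors checked reads with FastQC, mapped them to GRCm38 with STAR, and deposited raw counts for each Ensembl gene made with HTSeq 0.6.0 and FPKM made with Cufflinks 2.2.1. The annotation release and the strand setting are not given in the sources used here. Symbols came from GENCODE for 42462 genes.

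Counts were tested with edgeR 4.0.16 (R 4.3.3), TMM normalization, glmQLFit and glmQLFTest, in separate fits for each pair of groups, over genes whose FPKM reached 0.1 in a number of libraries no lower than the size of the smaller group. A call needed an adjusted p (Benjamini-Hochberg, over all genes tested) under 0.05 and a log2 fold change above 1 or below -1. The standard error is the log2 fold change divided by the root of its F. At or under 3 counts was read as not detectable; the 95% intervals of count ratios are exact binomial and cover counting error only. Alternatives were the DESeq2 size factors, DESeq2 1.42.0 itself, the newer edgeR form, no FPKM limit and a joint fit of the 3 groups. Further ones were limma 3.58.1 on log2 FPKM with a pseudocount of 0.1 or 1, and each library omitted in turn. The last were flox lines as the sole WT, libraries in no group placed by genotype, and the replicate number as a block. The code was tested on simulated data.

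Named were the 10 SOX genes, the other SOX genes, up to 4 called genes of each list by absolute log2 fold change between Apc and WT, the 3 genes most like Sox17, Sox9, Sox4 and Sox21, and Rspo3, Ptprk and Apc. Exceptions are marked, and values of some list genes are not reported here. Libraries of a group differed by more than sampling noise, the smallest chi-square per gene being 22.4.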

Additional observations from a re-analysis of the deposited data

Results flagged for a closer look

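A high value of Sox9 in WT replicate 6, at 15.661 FPKM, stood apart from the other WT libraries (9.63 to 11.1) by more than Dixon's limit at 95%. Sox21 in WT replicate 1, at 0.218 FPKM, stood apart in the same way from the other WT libraries (0.0188 to 0.0450). These were 2 of 26 sets of values examined, and chance flags about 1 in 20 (a share of 0.05). Among the libraries in no group, the one with the P-Rspo3 genotype had 0.2313 FPKM of Sox21, above the highest WT library at 0.218.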

How the results depend on the processing

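Over 388 values of single SOX genes under alternative settings, 364 kept their direction and their side of the adjusted p of 0.05, 8 lost and 4 gained significance and 12 changed sign. Those that changed sign were small in each fit. Sox13 between Apc and WT became 0.298 with limma on log2(FPKM + 0.1), 0.276 on log2(FPKM + 1), and 0.036 with the libraries in no group placed by genotype. It became 0.059, 0.033 and 0.038 without WT 5, Apc 1 and Apc 5 (range over fits that left out 1 library, -0.152 to 0.059). Sox4 between P-Rspo3 and WT became -0.014 without the Dox naive library, that is with the flox lines alone (range -0.014 to 0.303). Sox5 between P-Rspo3 and WT became 0.075 with limma at the smaller pseudocount and 0.0097 at the larger, and 0.160 and 0.075 without WT 6 and P-Rspo3 M (range -0.355 to 0.160). The 8 losses were those of Sox12 between Apc and WT, 7 of them in fits that left out 1 library. On the FPKM scales the median of all genes moved to 0.28 and 0.17 between Apc and WT, which bears on Sox13; the cause of the other changes was not tested.

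Between P-Rspo3 and WT, DESeq2 called 1 SOX gene (Sox12) where edgeR called 0, and over all genes 55 higher and 173 lower where edgeR called 1 and 0. With the flox lines as the only WT, 166 genes were higher and 100 lower, but no SOX gene was called. Between Apc and P-Rspo3, 7 SOX genes were called, 4 with limma on log2(FPKM + 1), and 6 to 7 when each library was left out. Between Apc and WT the number stayed at 4 when each library was left out, and between P-Rspo3 and WT at 0. Between Apc and WT it was 5 with limma on log2(FPKM + 0.1), where Sox9 was added, 4 on log2(FPKM + 1), with Sox9 called and Sox5 not (0.816), and 5 without the FPKM limit, where Sox18 was added. With the replicate number as a block, Apc against WT again gave 4 SOX genes, the same genes, and over all genes 1995 higher and 2310 lower. Same-numbered libraries, whose titles share a number, had correlations of -0.031 to 0.216 between their deviations (4 pairs, median 0.123), against a median of -0.026 for the 12 other pairs, and 3 of the 4 Apc libraries correlated best with their own number, a hint of pairing from the data. Since not every pair exceeded 0.1, the numbers were not taken to pair the samples. The split of all calls between Apc and WT, 2048 higher and 2364 lower, became 2586 and 1731 with limma on log2(FPKM + 0.1).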

Other observations

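The 2 libraries in no group were read as single values. The library with the genotype Dox naive (WT), grown in ENR medium, had 0 counts of Sox17, 17 of Sox21, 13 of Sox5 and 827 of Sox4. It also had 1251 of Sox9, 87 of Sox12, 653 of Sox6 and 633 of Sox13, with 0 counts of Rspo3. The library with the genotype Ptprk-Rspo3, grown in EN medium, had 0 counts of Sox17, 23 of Sox21, 10 of Sox5, 655 of Sox4, 915 of Sox9, 105 of Sox12, 572 of Sox6 and 553 of Sox13, with 729 counts of Rspo3. The FPKM of Sox13, 6.24 and 5.97, lay below the WT range of 8.29 to 11.8 in both, and that of Sox12, 0.592 and 0.797, lay above the P-Rspo3 range of 0.294 to 0.524. Beside the WT range of Sox12, 0.711 to 1.37, the Dox naive library lay below and the Ptprk-Rspo3 library within.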
